A study of Arabidopsis thaliana with 27 samples.

Results

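Loss of the auxin response factors ARF6 and ARF8 changed transcripts in the stamens and in the gynoecia of Arabidopsis thaliana. The change differed between the organs at 13.8% of the genes compared (adjusted p under 0.05, edgeR). This difference between the organs is described here gene by gene. In arf6arf8 stamens, falls outnumbered rises among listed genes for jasmonate synthesis (6 against 1 of 18 genes), photosynthesis (24 against 0 of 34) and wall loosening (5 against 1 of 15), while 11.2% of all genes compared fell and 10.6% rose. In arf6arf8 gynoecia the falls and rises of these lists were 0 against 1, 0 against 6 and 2 against 1, while 3.42% of all genes compared fell and 8.2% rose. The balance of falls and rises over all genes compared depended on how the libraries were scaled, as given below. The quantity examined was the difference between 2 effects: the log2 ratio of arf6arf8 to wild type in stamens minus the same log2 ratio in gynoecia. A positive difference means that the stamen effect lay above the gynoecium effect, and a negative one that it lay below. Members were all loci with a mean of at least 1 CPM (read counts in proportion to the library total, with library sizes scaled by the trimmed mean of M-values, TMM) in wild-type stamens and also in wild-type gynoecia. This rule kept 16360 of the 33602 loci in the table, so that both organs could show a rise or a fall. Wild-type levels alone chose the members, and the wild-type libraries of each organ also enter the effect in that organ.

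Polyadenylated RNA was sequenced from 11 libraries in 4 groups, among the 27 libraries of the series. The groups were arf6arf8 stamens (2 libraries), wild-type stamens (3), arf6arf8 gynoecia (2) and wild-type gynoecia (4). All plants were of the Columbia background. The labels name the mutant genotype as arf6arf8 without naming the alleles, and give no transgene for these 4 groups. Stamens were still green and came from buds of 1.5 to 1.8 mm at flower stage 11. Stage 12 flowers gave the gynoecia, which were between 0.9 and 1.4 mm long. Plants grew under 14 h of light and 10 h of dark, and tissue was frozen 1 to 3 h after dawn. Organ and flower stage therefore differ together and cannot be told apart in this comparison. Whether the libraries of a group are separate plants is not stated in the labels. The p-values therefore measure the spread between these libraries, which may be partly technical.

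Auxin response factors are transcription factors that bind short promoter elements and change the transcription of auxin-responsive genes. Aux/IAA proteins bind and repress them until auxin triggers the breakdown of the Aux/IAA protein. ARF6 and ARF8 belong to the activating class, and the microRNA miR167 cleaves the transcripts of both. In Arabidopsis flowers they are known for promoting filament elongation, anther opening and gynoecium maturation, partly through jasmonate, a hormone made from plastid fatty acids.

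The sequences through which miR167 meets its targets are shown first, because ARF6, ARF8 and the miR167 precursor genes are the genes that the study altered or named. They were read from the RefSeq copy of TAIR10.1, and capitals in the mature miRNAs mark the seed, bases 2 to 8.
miR167a-5p, chr3:8108090-8108110, plus strand: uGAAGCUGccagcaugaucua
miR167b, chr3:23406177-23406197, plus strand: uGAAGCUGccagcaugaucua
miR167c-5p, chr3:1306750-1306770, minus strand: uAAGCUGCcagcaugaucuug
miR167d, chr1:11137556-11137577, plus strand: uGAAGCUGccagcaugaucugg
The first, second and last of these share the seed GAAGCUG, while miR167c-5p as annotated starts so that its bases 2 to 8 read AAGCUGC. The best match to miR167a in each target transcript lay inside a coding exon. Capitals mark bases complementary to miR167a.
ARF6 site, chr1:10686478-10686498, minus strand: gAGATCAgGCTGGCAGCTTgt
ARF8 site, chr5:14633841-14633861, plus strand: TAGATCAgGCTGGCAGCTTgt
The ARF6 site pairs with miR167a at 17 of 21 bases and the ARF8 site at 18, and each pairs with 6 of the 7 seed bases.

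Transcripts of both mutated genes were lower in arf6arf8 in both organs, by nearly the same factor. ARF6 was at 25.7 and 28.8 CPM in arf6arf8 stamens, against 100.1, 111 and 112 CPM in wild-type stamens. In gynoecia, ARF6 was at 113 and 120.2 CPM in arf6arf8, against 366, 382, 454 and 461 CPM in wild type. Neither pair of groups overlapped, and the gynoecia carried the higher ARF6 level in each genotype. The effects were −1.99 ± 0.13 in stamens and −1.83 ± 0.12 in gynoecia (log2 ± SE), and their difference of −0.15 ± 0.17 was not called (adjusted p = 0.605, edgeR quasi-likelihood test). ARF8 was measured at 21.6 and 23.0 CPM in arf6arf8 stamens, against 77.0, 89.4 and 66.5 CPM in wild-type stamens. The gynoecia had 75.4 and 79.1 CPM in arf6arf8, against 339, 315, 302 and 305 CPM in wild-type gynoecia. Its effects were −1.80 ± 0.13 in stamens and −2.03 ± 0.11 in gynoecia, with a difference of 0.23 ± 0.16 (adjusted p = 0.387, edgeR). The reads of both genes that remained in arf6arf8 do not show whether a working protein was made.

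Reads on the miR167a precursor gene were higher in arf6arf8 in both organs, and far more so in gynoecia. The precursor was at 9.10 and 11.8 CPM in arf6arf8 stamens, against 2.64, 3.39 and 1.48 CPM in wild-type stamens. Gynoecia had 14.2 and 13.9 CPM in arf6arf8, against 0.250, 0.211, 0.130 and 0.449 CPM in wild type. The groups did not overlap in either organ. Its effect was 2.01 ± 0.28 in stamens and 5.66 ± 0.28 in gynoecia, a difference of −3.65 ± 0.48 (adjusted p = 0.000529, edgeR). With a wild-type gynoecium mean of 0.260 CPM this locus is no member, and mature miRNAs are not read by this kind of library. The precursors of miR167c and miR167d had 0 counts in all 11 libraries, and that of miR167b reached at most 0.810 CPM.

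Library totals were 9718773 to 12723197 counts in arf6arf8 stamens and 3989223 to 5512416 in wild-type stamens. Gynoecium totals were 14586768 to 15005992 in arf6arf8 and 6177301 to 11821613 in wild type. A level of 3 counts, the limit that a count of 0 allows, corresponds to between 0.174 and 0.991 CPM, with the shallowest libraries in wild-type stamens. Intervals and floors given here cover counting error only. The biological coefficient of variation was 0.118 among stamens alone and 0.0989 among gynoecia alone. In bulk RNA, fewer cells of a type and less RNA per cell cannot be told apart.

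Of the 16360 members, 2257 (13.8%) had a stamen effect that differed from the gynoecium effect at an adjusted p under 0.05, and these are called below. The stamen effect lay above the gynoecium effect at 694 members (4.24%) and below it at 1563 (9.55%). Over all 20374 loci tested, members or not, the shares were 13.2% in all, 3.74% above and 9.42% below. Taken by itself, the stamen effect was called at 3568 members (21.8%), of which 1739 (10.6%) rose and 1829 (11.2%) fell. The gynoecium effect was called at 1900 members (11.6%), of which 1341 (8.2%) rose and 559 (3.42%) fell. Medians over all members were near 0, at −0.01 for the difference, 0.03 for stamens and 0.04 for gynoecia (log2). The balance of the calls depended on scaling: the stamen effect was the higher one in 30.7% of the called differences with TMM, in 50.1% with upper-quartile scaling, which moved the median difference to 0.09, and in 48.6% without wild-type stamen replicate 2. It was the higher one in 45.0% when all 27 libraries were fitted together. The balance of rises and falls within each organ depended on scaling too. Rises made up 70.6% of the called gynoecium effects with TMM, 60.2% with median-of-ratios scaling, 56.2% with upper-quartile scaling and 58.8% with DESeq2. Of the called stamen effects they made up 48.7%, 39.05%, 57.5% and 36.9% in the same order. Without wild-type stamen replicate 2, rises were 57.15% of the called gynoecium effects.

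The effects in the organs were only loosely related. Across the 16360 members, the stamen and gynoecium effects had a Pearson r of 0.24 and a Spearman rho of 0.16, given as a description over genes that share the same libraries. Of these members, 11604 were called in neither organ by itself. Among the 2257 called members, the larger effect in size was in stamens at 1624 and in gynoecia at 633, and the effects had opposite signs at 1657. The most frequent pattern, 852 members, was a called fall in stamens with no called change in gynoecia. A called rise in stamens with no called change in gynoecia was found at 484 members. A called rise in gynoecia with no called change in stamens was found at 339 members, and a called fall there at 96. A further 165 members fell in stamens and rose in gynoecia, and 41 rose in stamens and fell in gynoecia, each with all 3 tests passed. In contrast, 506 of the 712 members called in both organs were called in the same direction, and 97 of these still differed in size between the organs.

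**Figure D1:**
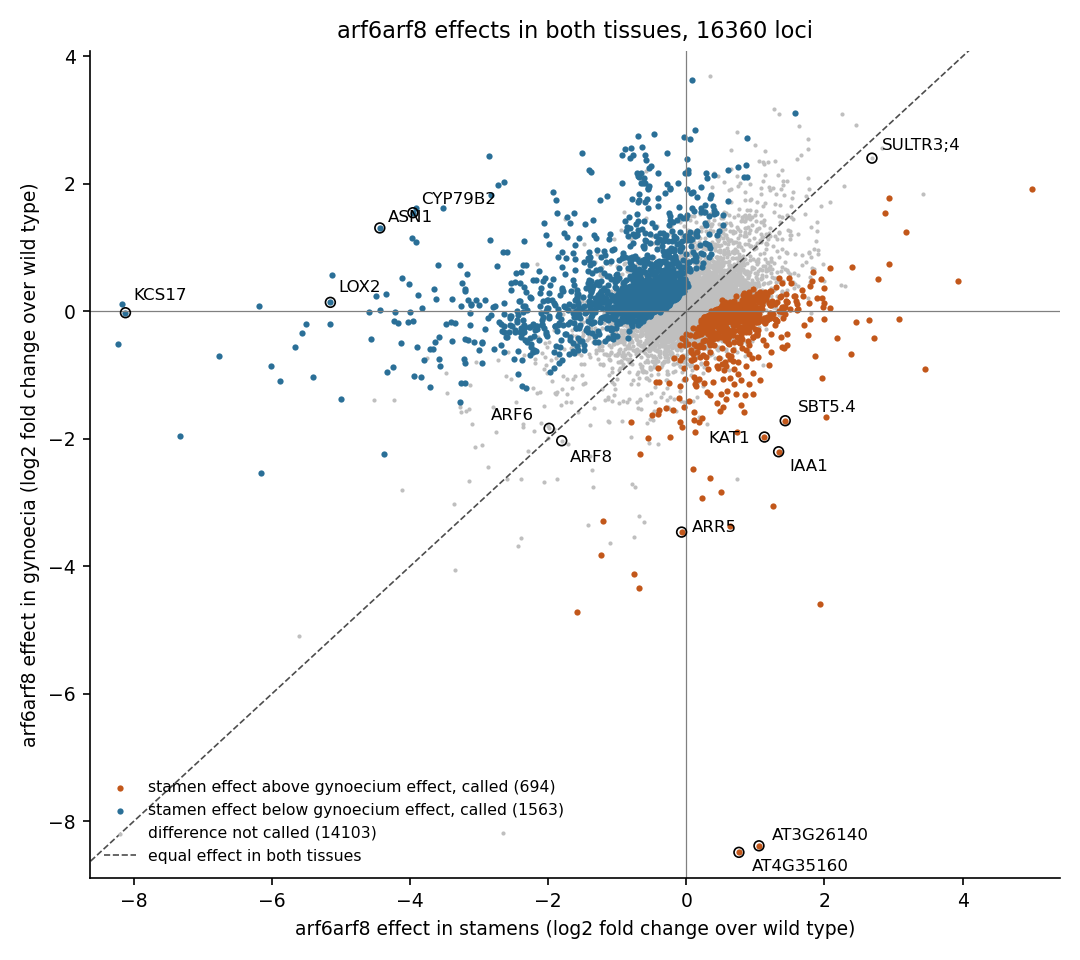
The arf6arf8 effect in stamens (horizontal axis, log2 fold change) is plotted against the effect in gynoecia (vertical axis, log2 fold change), with 1 point per member locus; coloured points are the 694 members whose stamen effect lay above the gynoecium effect and the 1563 whose stamen effect lay below it. The coloured points lie away from the diagonal of equal effects, and ARF6 and ARF8 lie close to it.

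Members at the edge of the rule were barely above 1 CPM in wild-type gynoecia. Just inside it stood AT1G19210 at 2.55 CPM in wild-type stamens and 1.00 CPM in wild-type gynoecia, and LEA at 985 CPM in wild-type stamens and 1.00 CPM in wild-type gynoecia. Just outside it stood AT1G56520 at 3.09 CPM in wild-type stamens and 0.9998 CPM in wild-type gynoecia, and AT1G73860 at 21.4 CPM in wild-type stamens and 0.999 CPM in wild-type gynoecia.

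Among the 8 lowest differences, several belonged to genes with few or no reads in arf6arf8 stamens. KCS17, a 3-ketoacyl-CoA synthase of the family that elongates fatty acids, was at 0.371 and 0.237 CPM in arf6arf8 stamens, against 86.6, 96.1 and 87.8 CPM in wild-type stamens. In gynoecia it was at 5.24 and 4.17 CPM in arf6arf8, against 4.41, 5.69, 4.80 and 4.04 CPM in wild type. The stamen groups were far apart and the gynoecium groups overlapped. Its stamen effect was −8.12 ± 0.24, its gynoecium effect −0.02 ± 0.15, and the difference −8.10 ± 0.31 (adjusted p = 5.89e-08, edgeR). AT5G23970, a HXXXD-type acyltransferase, had 0 counts in arf6arf8 stamens and 40 counts in wild-type stamens, at least 23.6-fold lower when 3 counts over the group are set against it, while its gynoecium effect was −0.52 ± 0.36. SQS2, the second squalene synthase gene, had 1 count in arf6arf8 stamens and 77 in wild-type stamens, a 136-fold ratio with a 95% counting interval of 23.8 to 5460. AT5G28237, annotated as a pyridoxal-5′-phosphate-dependent enzyme, had 2 counts in arf6arf8 stamens and 198 in wild-type stamens, a 175-fold ratio with an interval of 47.9 to 1460, and its gynoecium effect of −1.96 was a called fall too. AT5G23820, which carries an MD-2-related lipid-recognition domain, had a stamen effect of −5.13 ± 0.43 and a gynoecium effect of 0.57 ± 0.20, which was not called.

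The other 3 of the 8 lowest members were called lower in stamens and higher in gynoecia. ASN1, a glutamine-dependent asparagine synthetase, was at 12.6 and 18.2 CPM in arf6arf8 stamens, against 297, 373 and 322 CPM in wild-type stamens. It was at 182 and 162 CPM in arf6arf8 gynoecia, against 27.6, 59.2, 131 and 63.9 CPM in wild-type gynoecia, where the wild-type libraries spread widely but stayed below both arf6arf8 libraries. The difference was −5.75 ± 0.64 (adjusted p = 0.000159, edgeR). Its gynoecium call was the weak part: it was lost in 14 of 24 alternatives, with adjusted p up to 0.385 (edgeR). The serine carboxypeptidase-like gene scpl35 was at 0.743 and 0.950 CPM in arf6arf8 stamens, against 9.25, 16.1 and 12.1 CPM in wild-type stamens. It was at 35.1 and 39.0 CPM in arf6arf8 gynoecia, against 14.1, 8.99, 13.7 and 11.6 CPM in wild-type gynoecia. Its difference was −5.54 ± 0.40. CYP79B2, which turns tryptophan into indole-3-acetaldoxime, completes the 8 and is given with the glucosinolate genes.

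The highest differences were mostly falls in arf6arf8 gynoecia. IAA1, one of these 8, is given with the auxin genes. AT3G26140, a glycosyl hydrolase family 5 cellulase, was at 10.8 and 13.1 CPM in arf6arf8 stamens, against 4.29, 6.56 and 5.91 CPM in wild-type stamens. Its gynoecium level was 0.241 and 0.405 CPM in arf6arf8, against 132, 90.2, 115 and 114 CPM in wild type. The transcript was thus close to the floor in arf6arf8 gynoecia and moderately higher in arf6arf8 stamens. The effects were 1.05 ± 0.25 in stamens and −8.38 ± 0.26 in gynoecia, and the difference of 9.44 ± 0.37 was the highest of the called members whose average log2 CPM reached 1 (adjusted p = 5.89e-08, edgeR). AT4G35160, of the O-methyltransferase family, had 1 count in arf6arf8 gynoecia and 687 in wild-type gynoecia, a 516-fold ratio with a 95% counting interval of 92.3 to 20400. Its stamen effect of 0.76 ± 0.51 was not called. AT3G22240, annotated as PCC1-like with a cysteine-rich transmembrane domain, had 2 counts in arf6arf8 gynoecia and 78 in wild-type gynoecia, 29.3-fold lower with an interval of 7.84 to 246, while it rose by 1.93 ± 0.42 in stamens. For that gene, 37.8% of its 50-base windows occur elsewhere in the genome, so its counts are uncertain. SEN1, a senescence- and dark-associated gene, and ATGA2OX1, a gibberellin 2-oxidase that inactivates gibberellin, fell in gynoecia by 3.37 ± 0.75 and 4.34 ± 0.88 on the log2 scale.

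AT5G16960 and A7 reached the same end of the order through rises in stamens. AT5G16960, of the zinc-binding dehydrogenase family, was at 30.9 and 21.0 CPM in arf6arf8 stamens, against 0.991, 4.52 and 0.887 CPM in wild-type stamens, with a gynoecium effect of −0.90 ± 0.60. A7, a lipid-transfer-type protein gene of anthers, was at 15.9 and 9.62 CPM in arf6arf8 stamens, against 1.65, 6.33 and 0.591 CPM in wild-type stamens. Wild-type stamen replicate 2 lay above the other wild-type libraries in both. The calls of these lowly expressed genes were the less stable ones: over the alternatives tried, the adjusted p of the difference reached 0.416 for AT5G16960, 0.443 for A7, 0.0967 for SEN1 and 0.179 for ATGA2OX1 (edgeR or DESeq2).

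Some genes were called in opposite directions in the organs. KAT1, an inward potassium channel, was at 60.0 and 45.5 CPM in arf6arf8 stamens, against 25.8, 27.8 and 18.3 CPM in wild-type stamens. In gynoecia it was at 1.21 and 1.22 CPM in arf6arf8, against 4.91, 4.99, 4.80 and 4.40 CPM in wild type. The groups were apart in both organs, and the difference was 3.10 ± 0.29 (adjusted p = 5.13e-05, edgeR). Of the genes that rose in stamens and fell in gynoecia, the others with the smallest p-values were the subtilase gene SBT5.4 with a difference of 3.15 ± 0.35, the major facilitator AT1G59740 with 2.27 ± 0.27, the polyol and monosaccharide transporter PMT5 with 1.72 ± 0.18, and the heavy metal ATPase HMA2 with 1.46 ± 0.16. All 4 had arf6arf8 and wild-type libraries apart in both organs. Their choice by small p-values in both organs makes this likely, so it is no further support. PMT5, for example, was at 134 and 131 CPM in arf6arf8 stamens, against 69.1, 88.9 and 60.0 CPM in wild-type stamens, and arf6arf8 gynoecia had 38.3 and 41.1 CPM, against 76.0, 71.4, 74.7 and 65.6 CPM in wild-type gynoecia.

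The reverse pattern, a fall in stamens with a rise in gynoecia, was led by scpl35, CYP79B2 and 3 more genes. AT5G44260, a CCCH-type zinc-finger gene, had a difference of −3.96 ± 0.29. AT5G02180, a transmembrane amino acid transporter, was at 6.03 and 5.94 CPM in arf6arf8 stamens, against 17.8, 17.2 and 12.7 CPM in wild-type stamens, and arf6arf8 gynoecia had 5.97 and 5.04 CPM, against 1.33, 1.05, 1.04 and 1.26 CPM in wild-type gynoecia. The wild-type organs thus differed in this transcript far more than the arf6arf8 organs did. AT4G39670, of the glycolipid transfer protein family, had a difference of −2.97 ± 0.22.

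**Figure D2:**
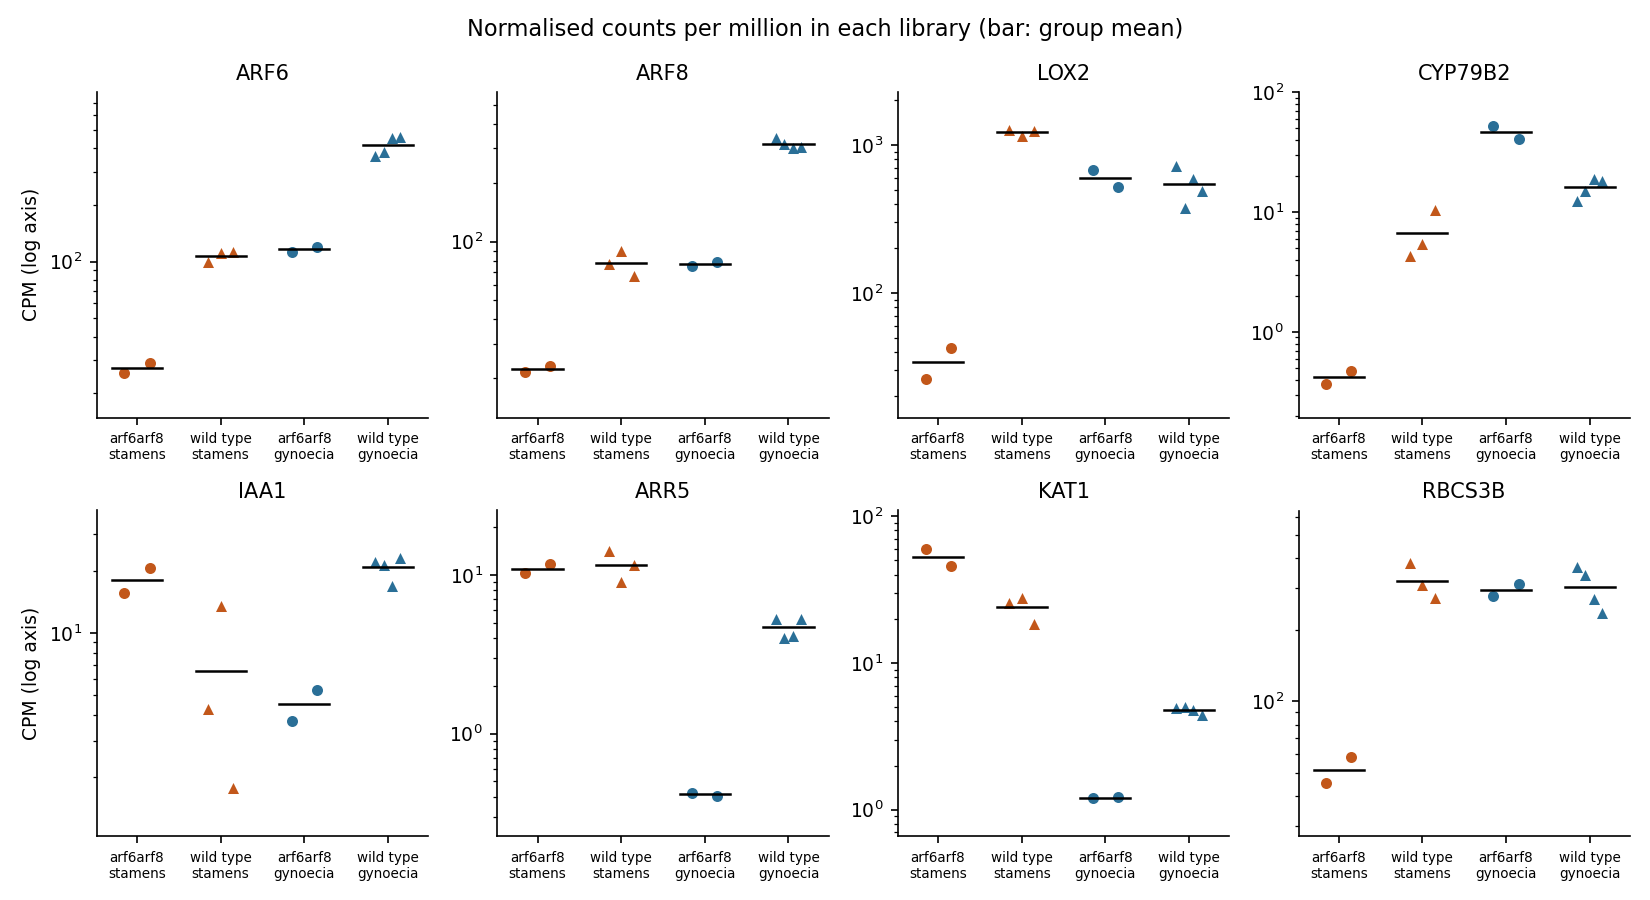
CPM in each of the 11 libraries (vertical log axis) of 8 genes named in the text, with arf6arf8 (circles) to the left of wild type (triangles) in each organ and stamens to the left of gynoecia; each point is 1 library and each bar a group mean. KAT1 and IAA1 stand higher in arf6arf8 stamens and lower in arf6arf8 gynoecia than in wild type, LOX2 is lower in arf6arf8 stamens alone, and ARF6 is lower in arf6arf8 in both organs.

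Gene lists follow, each with its counts over the members. Their counts are to be read against the shares of all members, 4.24% with a stamen effect called above the gynoecium effect and 9.55% with one called below. Wherever a list is given a count of 0 in a direction, edgeR also gave 0 at an unadjusted p under 0.05 and DESeq2 gave 0, except for the secondary-wall, clock and tapetum lists. Among the 15 auxin response factor genes listed, all of them members, 6 had a stamen effect above the gynoecium effect and 0 below it, with a median difference of 0.42. These were ARF11, ETT, ARF4, ARF9, ARF17 and ARF1, which are all usually placed in the repressing classes of the family. Most of the 15 listed genes belong to those classes, so the 6 calls do not set the repressing classes apart. In stamens 6 of the 15 rose and 3 fell, and in gynoecia 0 rose and 4 fell, counts that include the mutated ARF6 and ARF8. ETT, which patterns the gynoecium, was at 66.4 and 71.7 CPM in arf6arf8 stamens, against 35.0, 38.2 and 29.9 CPM in wild-type stamens. Its gynoecium levels of 113 and 120.3 CPM in arf6arf8 and 109.7, 124, 134 and 116 CPM in wild type overlapped, and the difference was 1.05 ± 0.15 (adjusted p = 0.00106, edgeR). ARF11 was at 9.10 and 10.8 CPM in arf6arf8 stamens, against 1.98, 2.04 and 0.591 CPM in wild-type stamens, with a difference of 2.78 ± 0.33. Both genes rose in stamens alone. ARF9 was the exception, with a called fall of 0.47 in gynoecia and a stamen effect of 0.24 that was not called. Without arf6arf8 gynoecium replicate 2, 3 of the 6 calls were made.

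Aux/IAA repressors and GH3 enzymes, which join auxin or jasmonate to amino acids, are quick auxin-response genes, and they did not move together. Of 33 listed genes, 26 were members, 3 with a stamen effect above the gynoecium effect and 2 with one below. In stamens 7 rose and 5 fell, and in gynoecia 2 rose and 5 fell. IAA1 was at 15.6 and 20.5 CPM in arf6arf8 stamens, against 4.29, 13.6 and 1.77 CPM in wild-type stamens. It was at 3.74 and 5.33 CPM in arf6arf8 gynoecia, against 22.0, 21.4, 16.9 and 23.0 CPM in wild-type gynoecia. The gynoecium groups were clearly apart, while wild-type stamen replicate 2 came close to arf6arf8. Its effects of 1.34 ± 0.43 in stamens and −2.20 ± 0.36 in gynoecia differed by 3.54 ± 0.55 (adjusted p = 0.00152, edgeR). IAA26 was at 45.7 and 44.4 CPM in arf6arf8 stamens, against 36.7, 33.7 and 36.7 CPM in wild-type stamens, and arf6arf8 gynoecia had 18.7 and 21.2 CPM, against 47.1, 56.7, 49.3 and 45.2 CPM in wild-type gynoecia (difference 1.66 ± 0.15). The rises of both in stamens were less stable than their differences: that of IAA26 lost its call in 15 of 24 alternatives (adjusted p up to 0.143) and that of IAA1 in 7 (up to 0.158), by edgeR or DESeq2. GH3.6 differed by 1.49 through a fall in gynoecia, whereas GH3.2 and IAA3 differed by −1.48 and −1.56 through falls in stamens. In the exons of IAA3, 39.6% of bases overlap a gene on the other strand, and whether the counting used strand is not given in the sources used here. Other settings changed the count of 3, to 7 with DESeq2, 5 with upper-quartile scaling, 6 without wild-type stamen replicate 2 and 2 in the fit of all 27 libraries. The count of 2 below was 0 in that fit and without arf6arf8 stamen replicate 1. Of 17 listed SAUR genes, small auxin-induced growth genes, a single one was a member, and it was not called in the difference.

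Carriers of auxin shifted in both directions. Of 20 genes for auxin synthesis and transport, 15 were members, 2 with a stamen effect above the gynoecium effect and 3 below. The efflux carrier PIN7 rose in both organs, more so in stamens, with a difference of 1.07 ± 0.20. LAX3, an influx carrier, was at 1.30 and 1.19 CPM in arf6arf8 stamens, against 8.26, 8.37 and 8.57 CPM in wild-type stamens. In gynoecia LAX3 was at 20.8 and 15.5 CPM in arf6arf8, against 11.3, 9.35, 10.2 and 13.2 CPM in wild type. It fell in stamens and rose in gynoecia, and the difference was −3.45 ± 0.33 (adjusted p = 5.73e-05, edgeR). The influx carrier AUX1 and the transporter ABCB19 differed by −0.63 and −0.57. In 4 of the settings tried, the count of 3 became 1, among them the fits without either arf6arf8 stamen library.

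**Figure D3:**
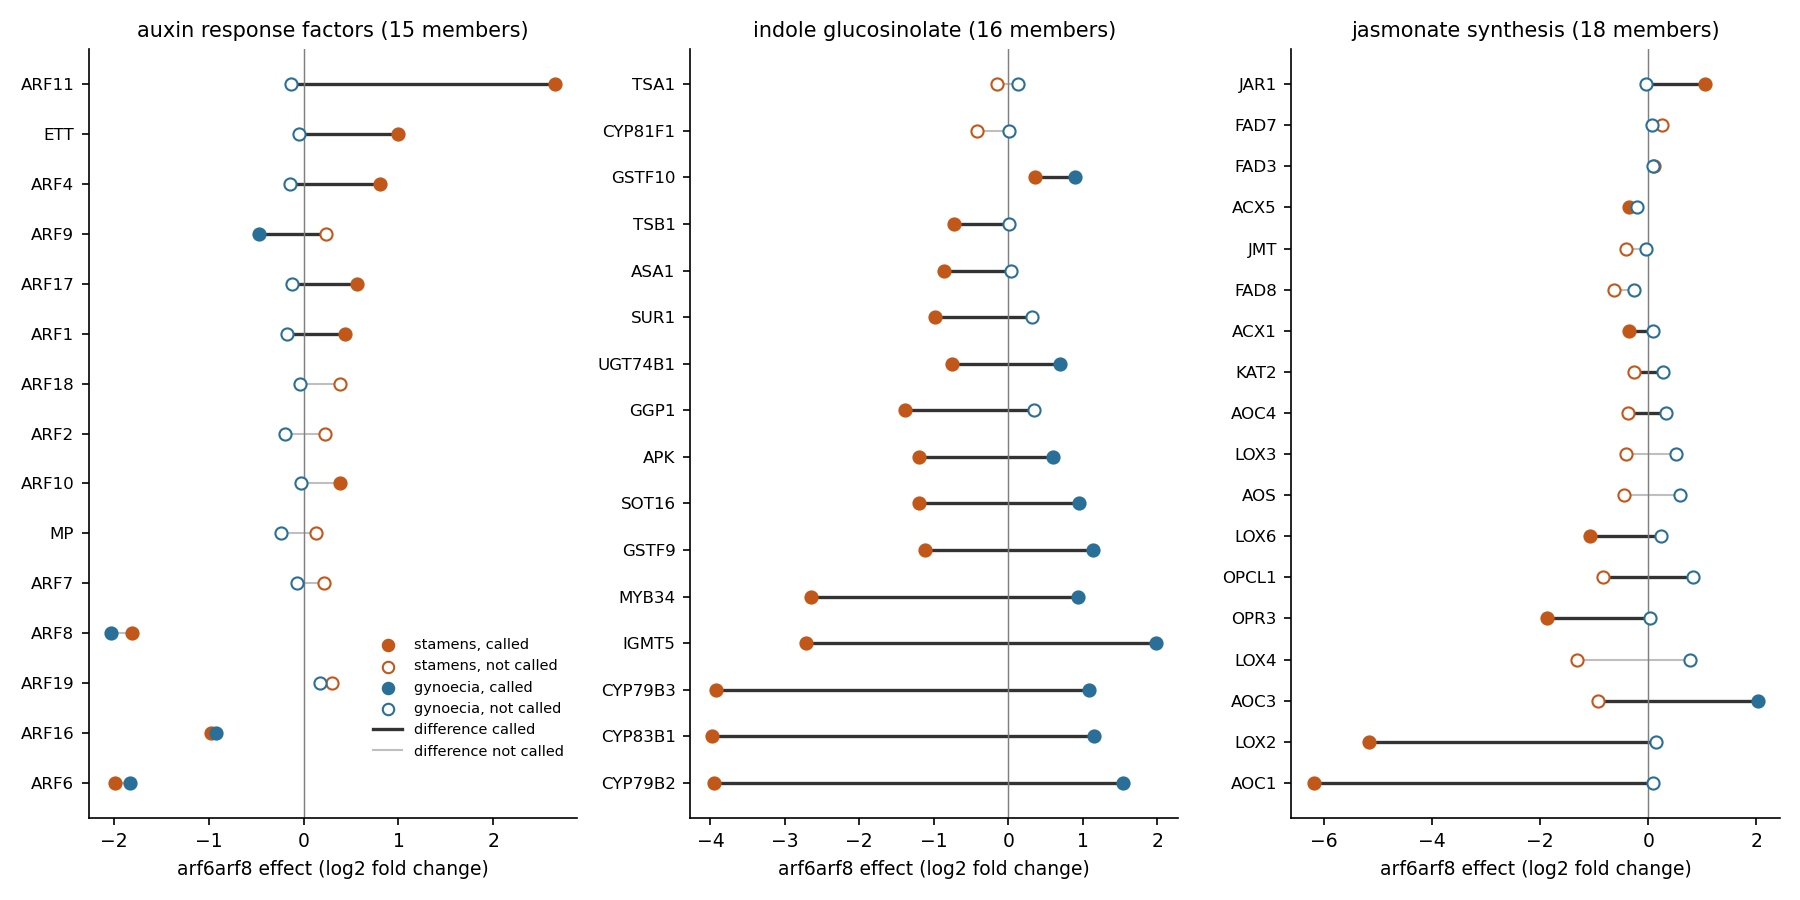
The arf6arf8 effect (log2 fold change, horizontal axis) in stamens (orange) and gynoecia (blue) of every member of 3 gene lists, with filled points for called effects and dark lines for called differences. The stamen point lies to the right of the gynoecium point for ARF11, ETT and ARF4, and to the left of it for CYP79B2, CYP83B1, LOX2 and AOC1.

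Jasmonate genes gave one of the plainest contrasts between the organs. Of 20 listed genes for jasmonate synthesis, 18 were members, and the stamen effect lay below the gynoecium effect at 9 and above it at 1 (median difference −0.81). In stamens 6 fell and 1 rose, while in gynoecia 0 fell and 1 rose. LOX2, a plastid lipoxygenase at the start of the pathway, was at 26.2 and 42.6 CPM in arf6arf8 stamens, against 1254, 1156 and 1244 CPM in wild-type stamens. In gynoecia it was at 678 and 520.3 CPM in arf6arf8, against 725, 377, 586 and 486 CPM in wild type. The stamen groups were far apart and the gynoecium groups overlapped. Its effects were −5.15 ± 0.32 in stamens and 0.14 ± 0.23 in gynoecia, with a difference of −5.29 ± 0.37 (adjusted p = 6.5e-06, edgeR). LOX6 was at 20.1 and 23.6 CPM in arf6arf8 stamens, against 45.9, 42.1 and 50.3 CPM in wild-type stamens, with overlapping levels in gynoecia (difference −1.31 ± 0.19).

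Later steps of the pathway behaved likewise in part. OPR3, the reductase that commits the intermediate to jasmonate, was at 7.15 and 14.1 CPM in arf6arf8 stamens, against 43.9, 30.8 and 40.2 CPM in wild-type stamens, while its gynoecium effect was 0.03. AOC1, an allene oxide cyclase, had 1 count in arf6arf8 stamens and 50 in wild-type stamens, an 88.6-fold ratio with a 95% counting interval of 15.2 to 3570. AOC3, another cyclase, had its called change in gynoecia, at 17.2 and 15.5 CPM in arf6arf8, against 5.24, 3.51, 2.20 and 4.76 CPM in wild type. The beta-oxidation enzymes ACX1 and KAT2 differed by only −0.45 and −0.55. JAR1, which joins jasmonate to isoleucine and so makes the active hormone, went the other way, at 372 and 361 CPM in arf6arf8 stamens, against 192, 217 and 120.1 CPM in wild-type stamens. The count of 9 was 5 when all 27 libraries were fitted together, when only libraries numbered up to 23 were used, and without wild-type stamen replicate 1 or either arf6arf8 gynoecium library.

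Jasmonate-responsive genes fell in stamens and were split in gynoecia. Of 21 listed, 13 were members, 8 with a stamen effect below the gynoecium effect and 0 above it (median difference −1.33). In stamens 9 fell and 0 rose, and in gynoecia 4 fell and 3 rose. JAZ proteins repress jasmonate signalling, and their genes are themselves induced by the hormone. JAZ10 was at 1.49 and 1.90 CPM in arf6arf8 stamens, against 17.2, 19.9 and 23.1 CPM in wild-type stamens, and arf6arf8 gynoecia had 8.86 and 7.76 CPM, against 13.4, 12.8, 14.8 and 15.1 CPM in wild-type gynoecia. JAZ6 was at 8.26 and 11.5 CPM in arf6arf8 stamens, against 115, 89.4 and 146 CPM in wild-type stamens, and arf6arf8 gynoecia had 40.6 and 36.5 CPM, against 68.9, 58.2, 75.1 and 77.4 CPM in wild-type gynoecia. Both genes fell in both organs, but by more in stamens, with differences of −2.83 ± 0.26 and −2.71 ± 0.28. JAZ1 had a called rise of 1.44 in gynoecia and a called fall of 1.35 in stamens. VSP1, a vegetative storage protein gene used as a jasmonate marker, was at 36.4 and 72.9 CPM in arf6arf8 stamens, against 941, 1048 and 1101 CPM in wild-type stamens, and fell less in gynoecia (difference −3.37 ± 0.36). In this list arf6arf8 stamen replicate 2 lay above replicate 1 at JAZ1 and JAZ5, with 135 against 60.7 CPM and 36.6 against 9.65 CPM.

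Indole glucosinolate genes turned in opposite directions in the organs. Indole glucosinolates are defence compounds made from tryptophan by way of indole-3-acetaldoxime, an intermediate that also lies on a route to auxin. The list of 23 genes was drawn up after their values had been seen, so its counts are a description and support nothing further. Of its 16 members, 14 had a stamen effect below the gynoecium effect and 0 above it. In stamens 13 fell and 1 rose, while in gynoecia 10 rose and 0 fell, with median effects of −1.16 in stamens and 0.80 in gynoecia. CYP79B2 was at 0.371 and 0.475 CPM in arf6arf8 stamens, against 4.29, 5.43 and 10.3 CPM in wild-type stamens. Its gynoecium level was 52.3 and 41.1 CPM in arf6arf8, against 12.4, 14.9, 19.1 and 18.0 CPM in wild type. CYP83B1, the next enzyme, was at 2.51 and 4.27 CPM in arf6arf8 stamens, against 46.6, 44.3 and 65.9 CPM in wild-type stamens. In gynoecia CYP83B1 was at 126 and 94.4 CPM in arf6arf8, against 47.9, 36.3, 59.3 and 55.7 CPM in wild type. Neither gene overlapped between genotypes in either organ, and the differences were −5.51 ± 0.57 and −5.13 ± 0.38 (adjusted p = 9.32e-05 and 9.32e-06, edgeR).

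The regulator and the later enzymes of the route followed the same order. CYP79B3, the close relative of CYP79B2, differed by −5.00, and MYB34, a transcription factor that activates the route, by −3.58. MYB34 was at 0.371 and 0.237 CPM in arf6arf8 stamens, against 0.991, 2.49 and 2.37 CPM in wild-type stamens, levels of a few counts in the shallow wild-type libraries. It was at 10.8 and 12.7 CPM in arf6arf8 gynoecia, against 5.83, 6.32, 6.87 and 5.66 CPM in wild-type gynoecia. The sulfotransferase SOT16 differed by −2.15, the glucosyltransferase UGT74B1 by −1.46, and APK, which makes the sulfate donor, by −1.79 ± 0.15. The tryptophan synthesis genes ASA1 and TSB1, upstream of the route, differed by −0.89 and −0.74 through falls in stamens. GSTF10 was the exception in stamens, with a called rise of 0.36. In all settings tried, between 11 and 14 of the list's members had a stamen effect called below the gynoecium effect.

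Of 15 listed genes for methionine-derived glucosinolates, 6 were members, 4 with a stamen effect below the gynoecium effect and 0 above it. In stamens 4 fell and 1 rose, and in gynoecia 4 rose and 0 fell. SOT18, a sulfotransferase of the last core step, was at 35.6 and 33.2 CPM in arf6arf8 stamens, against 56.8, 40.3 and 55.9 CPM in wild-type stamens, and arf6arf8 gynoecia had 11.3 and 11.8 CPM, against 4.16, 3.79, 3.50 and 3.41 CPM in wild-type gynoecia. The UDP-glycosyltransferase gene AT2G31790 differed by −1.96 ± 0.23. SOT17 and SUR1 were the others called, and SUR1 also stands in the indole list. With a minimum of 5 CPM in both wild-type organs, 2 such members remained in the count.

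Nuclear genes of the photosynthetic apparatus gave one of the most uniform lists, with small changes. All 34 listed genes were members, and 29 had a stamen effect below the gynoecium effect, against 9.55% of all members. All 34 stamen effects were negative, 24 of them called, and 32 of the 34 gynoecium effects were positive, 6 of them called. The median effects were −0.51 in stamens and 0.21 in gynoecia. RBCS3B, a small subunit of Rubisco, was at 45.3 and 58.2 CPM in arf6arf8 stamens, against 381, 310.2 and 274 CPM in wild-type stamens, with overlapping gynoecium levels (difference −2.59 ± 0.27). LHCB4.2, a minor antenna protein of photosystem II, was at 51.0 and 49.1 CPM in arf6arf8 stamens, against 88.9, 86.2 and 87.5 CPM in wild-type stamens. LHCB4.2 in gynoecia was at 206 and 202 CPM in arf6arf8, against 187, 176, 206 and 172 CPM in wild type, and its difference was −0.95 ± 0.12 (adjusted p = 0.000529, edgeR). LHCB1.2, a major antenna protein, fell in stamens and rose in gynoecia, where it was at 569 and 565 CPM in arf6arf8, against 395, 362, 448 and 324 CPM in wild type. Reads can be shared among near copies here: 16.5% of the 50-base windows of RBCS3B and 10.6% of those of LHCB1.2 occur elsewhere. The count of 29 depended on the libraries fitted: it was 4 in the fit of all 27 libraries, 10 and 13 without arf6arf8 stamen replicate 1 or 2, and 19 without wild-type stamen replicate 1 or arf6arf8 gynoecium replicate 1.

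**Figure D4:**
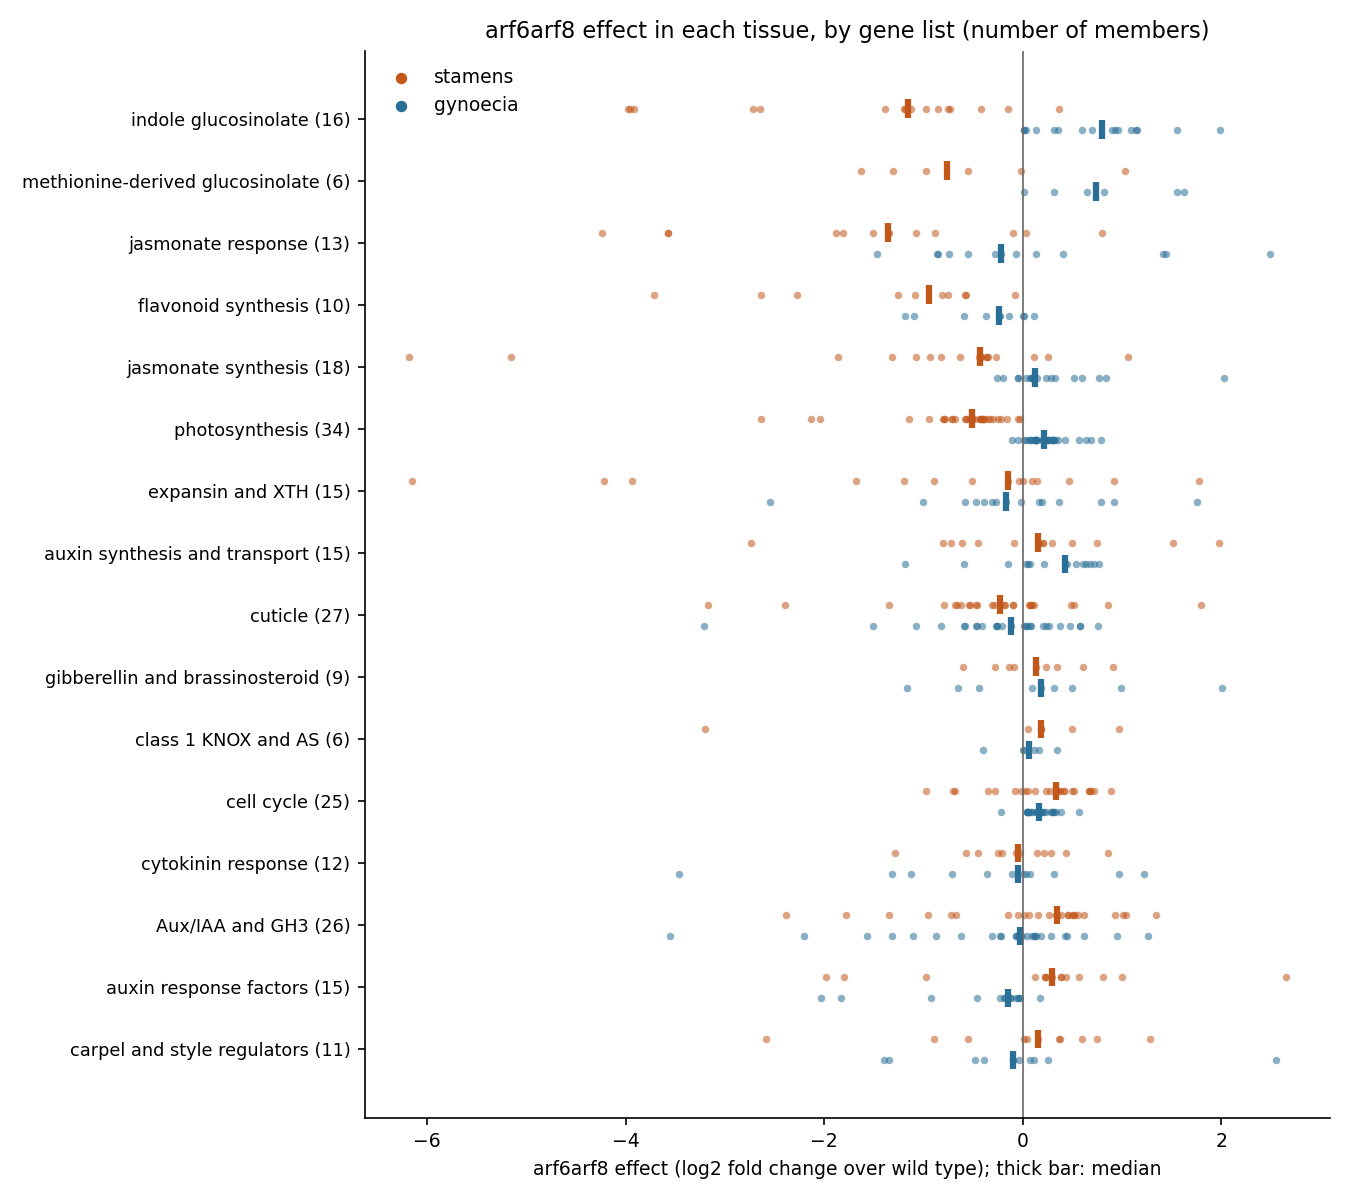
The arf6arf8 effect (log2 fold change, horizontal axis) of each member of 16 gene lists, in stamens (orange) above gynoecia (blue), with a thick bar at the median. The photosynthesis medians stand at −0.51 in stamens and 0.21 in gynoecia, and the indole glucosinolate medians at −1.16 in stamens and 0.80 in gynoecia.

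The called flavonoid genes were lower in arf6arf8. Of 12 listed, 10 were members, 3 with a stamen effect below the gynoecium effect and 0 above it. In stamens 5 fell and in gynoecia 3 fell, with 0 rises in either. CHS, chalcone synthase at the entry of the pathway, was at 96.7 and 141 CPM in arf6arf8 stamens, against 632, 598 and 491 CPM in wild-type stamens, while its 974 and 1009 CPM in arf6arf8 gynoecia lay within the 963 to 1442 CPM of wild-type gynoecia. FLS1, flavonol synthase, was at 23.5 and 27.3 CPM in arf6arf8 stamens, against 161, 202 and 108 CPM in wild-type stamens, with overlapping gynoecium levels (difference −2.40 ± 0.36). The gynoecium effects of CHS and FLS1 were not called (adjusted p = 0.472 and 0.598, edgeR). MYB12, which activates both enzymes' genes, fell in both organs and differed by −2.53.

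Expansins loosen walls, and XTH enzymes cut and rejoin xyloglucan. Of 19 listed, 15 were members, 5 with a stamen effect below the gynoecium effect and 0 above it. EXP3 was at 0.928 and 1.31 CPM in arf6arf8 stamens, against 15.9, 19.5 and 15.1 CPM in wild-type stamens, and arf6arf8 gynoecia had 11.6 and 13.9 CPM, against 22.3, 29.0, 29.7 and 22.3 CPM in wild-type gynoecia. It fell in both organs, by 3.94 in stamens and 1.01 in gynoecia on the log2 scale. EXPA8 also fell in both, by 6.15 in stamens and 2.54 in gynoecia. XTH8, EXPA6 and EXPA1 fell in stamens alone, with differences of −4.20, −1.51 and −1.38. In the fit of all 27 libraries the count of 5 was 3.

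Genes of the cuticle, the wax and cutin layer, divided into both classes. Of 28 listed, 27 were members, 4 with a stamen effect above the gynoecium effect and 5 below, which is 14.8% and 18.5% of them, against 4.24% and 9.55% of all members. MYB16, an activator of cuticle genes, was at 6.13 and 8.43 CPM in arf6arf8 stamens, against 17.2, 19.9 and 17.4 CPM in wild-type stamens, and arf6arf8 gynoecia had 32.1 and 32.9 CPM, against 21.6, 20.1, 17.0 and 18.0 CPM in wild-type gynoecia. It fell in stamens and rose in gynoecia (difference −2.10 ± 0.20, adjusted p = 6.47e-05, edgeR). SHN3, an activator of the same process, fell in stamens alone (difference −3.75 ± 0.48). The cutin exporter ABCG13 and the acyltransferases GPAT8 and DCR were the others below, at −1.98, −0.71 and −0.58. Above stood BDG1 at 1.91, the elongase KCS6 at 1.33, the wax gene CER3 at 1.22 and the transporter ABCG11 at 0.82. CER3 reached this through gynoecia, at 220 and 151 CPM in arf6arf8, against 671, 451, 486 and 508 CPM in wild type. The count of 5 was 3 in 7 of the settings, and that of 4 was 2 without arf6arf8 gynoecium replicate 2. Of 11 suberin genes 3 were members, and the transporter ABCG20 alone was called, falling in stamens (difference −2.19). Of 19 secondary-wall genes 12 were members, 6 of which rose in stamens. In gynoecia edgeR called 0, although 6 were higher at an unadjusted p under 0.05 and DESeq2 called 3, while a single gene, the lignin enzyme 4CL1, was called in the difference at −0.90 (adjusted p = 0.0421, edgeR). That call was lost with upper-quartile scaling, in the fit of all 27 libraries, and without any one of the stamen libraries, either arf6arf8 gynoecium library, or wild-type gynoecium replicate 2 or 3.

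The cytokinin list showed calls in gynoecia rather than in stamens for its response regulators. Of 14 genes, 12 were members, 3 with a stamen effect above the gynoecium effect and 1 below. ARR5, a type-A response regulator that cytokinin induces, was at 10.2 and 11.6 CPM in arf6arf8 stamens, against 14.2, 9.05 and 11.5 CPM in wild-type stamens. In gynoecia ARR5 was at 0.422 and 0.405 CPM in arf6arf8, against 5.24, 4.01, 4.15 and 5.30 CPM in wild type. The stamen groups overlapped and the gynoecium groups were far apart, with a difference of 3.39 ± 0.37 (adjusted p = 0.00015, edgeR). ARR4 and ARR9, of the same type, also fell in gynoecia alone, with differences of 0.87 and 0.99. CKX1, a cytokinin oxidase that degrades the hormone, was at 2.04 and 3.21 CPM in arf6arf8 stamens, against 4.29, 7.92 and 6.21 CPM in wild-type stamens, and arf6arf8 gynoecia had 10.1 and 10.4 CPM, against 5.16, 5.20, 5.45 and 5.21 CPM in wild-type gynoecia (difference −2.25 ± 0.33). A gene on the other strand overlaps 35.2% of its exon bases.

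Hormone genes of the gibberellin and brassinosteroid routes were called mainly in gynoecia. Of 11 listed, 9 were members, 1 with a stamen effect above the gynoecium effect and 2 below. GA20ox2, which makes late gibberellin precursors, was at 6.15 and 8.22 CPM in arf6arf8 gynoecia, against 1.33, 2.25, 1.43 and 1.98 CPM in wild-type gynoecia, with a stamen effect of −0.28 ± 0.17 that was not called (difference −2.28 ± 0.27). BR6OX2, which makes brassinolide, rose in gynoecia (difference −1.07), and ROT3, a brassinosteroid hydroxylase, fell there (difference 1.30 ± 0.30). The ROT3 call was lost without arf6arf8 gynoecium replicate 1 (adjusted p = 0.0619, edgeR).

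Regulators of carpel, style and boundary tissue were called in both directions. Of 20 carpel and style regulators, 11 were members, 2 with a stamen effect above the gynoecium effect and 2 below. ALC, a factor of the valve margin, was at 50.5 and 61.2 CPM in arf6arf8 gynoecia, against 163, 154, 138 and 134 CPM in wild-type gynoecia, and overlapped in stamens (difference 1.44 ± 0.19). A gene on the other strand overlaps 84.5% of the ALC exon bases, so the pair cannot be told apart without the strand setting. NTT, a zinc-finger factor of the transmitting tract, was at 0.557 and 0.831 CPM in arf6arf8 stamens, against 3.96, 4.52 and 3.84 CPM in wild-type stamens, with a smaller called fall of 0.40 in gynoecia. RPL differed by 0.47, and CRC is given with the nectary markers. Among 6 class 1 KNOX and AS genes, AS2, which represses KNOX genes in lateral organs, was at 0.278 and 0.237 CPM in arf6arf8 stamens, against 1.98, 2.26 and 3.25 CPM in wild-type stamens (difference −3.55 ± 0.55). BP, a KNOX gene, was at 2.97 and 3.21 CPM in arf6arf8 stamens, against 0.661, 2.26 and 1.48 CPM in wild-type stamens (difference 1.38 ± 0.35), a call lost in other settings.

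Cell cycle, clock and terpene genes added little. Of 25 cell cycle genes, all of them members, 2 differed in each direction, and AUR2, an Aurora kinase, had the smallest p with a difference of −0.97 ± 0.14. Of 13 clock genes 12 were members with a median difference of 0.50, and 0 were called in the difference by edgeR, against 1 by DESeq2 and 3 at an unadjusted p under 0.05. Of 7 floral terpene genes 2 were members, and both fell in gynoecia. In stamens 1 of them was a called fall, and 0 were called in the difference. Their median effects were −2.98 in stamens and −2.80 in gynoecia.

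Members called in the same direction in both organs included ARF6 and ARF8 and 2 more with the smallest p-values of the shared falls. AT4G20320, a CTP synthase, was at 52.4 and 67.1 CPM in arf6arf8 stamens, against 159, 211 and 199.9 CPM in wild-type stamens, and arf6arf8 gynoecia had 121 and 119 CPM, against 305, 292, 335 and 360.1 CPM in wild-type gynoecia. Its effects of −1.67 ± 0.15 in stamens and −1.43 ± 0.14 in gynoecia differed by −0.24 ± 0.19. AT5G07770, an actin-binding formin, fell by 2.76 in stamens and 1.89 in gynoecia, and its difference of −0.87 ± 0.28 was not called (adjusted p = 0.0639, edgeR). Among shared rises, SULTR3;4, of the sulfate transporter family, was at 47.9 and 70.4 CPM in arf6arf8 stamens, against 7.60, 12.0 and 7.10 CPM in wild-type stamens, and arf6arf8 gynoecia had 11.1 and 12.5 CPM, against 2.75, 1.97, 2.20 and 1.98 CPM in wild-type gynoecia. Its effects were 2.69 ± 0.22 in stamens and 2.40 ± 0.22 in gynoecia. The alpha-galactosidase AGAL2, AT4G32350 of the Vps4-regulator type and the nitrile-specifier gene NSP1, which acts in glucosinolate breakdown, rose by between 1.05 and 1.38 in each organ. In NSP1, 27.5% of the 50-base windows occur elsewhere in the genome.

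Promoters are shown for those of the 8 highest and 8 lowest members that hold a searched motif in the 250 bases before the annotated start. The motifs were TGTCTC and TGTCGG, which auxin response factors bind, and CACGTG, the G-box bound by basic helix-loop-helix and bZIP factors, each searched on both strands. Capitals mark the matches (GAGACA and CCGACA are TGTCTC and TGTCGG on the other strand), and the sequences are from the RefSeq copy of TAIR10.1, in the direction of the gene.
IAA1, difference 3.54, chr4:8360746-8360995, plus strand: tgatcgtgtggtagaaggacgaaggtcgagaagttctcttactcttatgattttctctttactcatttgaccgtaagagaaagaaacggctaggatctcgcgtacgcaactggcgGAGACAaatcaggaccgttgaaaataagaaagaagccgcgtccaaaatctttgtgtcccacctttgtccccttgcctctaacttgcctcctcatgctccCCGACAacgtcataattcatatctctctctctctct
AT5G16960, difference 4.36, chr5:5575911-5576160, minus strand: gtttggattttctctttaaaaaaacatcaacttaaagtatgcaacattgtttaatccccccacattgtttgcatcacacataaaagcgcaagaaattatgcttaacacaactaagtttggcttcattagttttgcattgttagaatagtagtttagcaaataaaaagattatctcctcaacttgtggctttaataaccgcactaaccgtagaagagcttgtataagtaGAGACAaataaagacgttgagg
AT4G35160, difference 9.25, chr4:16732924-16733173, minus strand: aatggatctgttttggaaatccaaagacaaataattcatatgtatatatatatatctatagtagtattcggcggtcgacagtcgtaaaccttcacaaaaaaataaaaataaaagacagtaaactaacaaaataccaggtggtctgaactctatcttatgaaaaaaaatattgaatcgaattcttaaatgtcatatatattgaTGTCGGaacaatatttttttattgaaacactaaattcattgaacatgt
ASN1, difference −5.75, chr3:17441432-17441681, minus strand: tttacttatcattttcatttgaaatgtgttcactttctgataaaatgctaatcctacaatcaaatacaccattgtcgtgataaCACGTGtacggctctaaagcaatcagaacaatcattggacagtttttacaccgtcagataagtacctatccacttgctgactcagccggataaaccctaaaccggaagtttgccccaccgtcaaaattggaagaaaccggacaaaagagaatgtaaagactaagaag
AT5G23820, difference −5.70, chr5:8030915-8031164, plus strand: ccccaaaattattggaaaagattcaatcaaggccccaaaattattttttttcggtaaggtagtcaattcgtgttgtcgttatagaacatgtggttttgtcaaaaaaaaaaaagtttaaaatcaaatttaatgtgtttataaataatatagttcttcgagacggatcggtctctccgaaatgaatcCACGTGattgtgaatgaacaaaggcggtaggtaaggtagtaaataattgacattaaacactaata
In windows of 300 bases (250 before to 50 after the start), TGTCTC was found in 14.6% of 692 members whose stamen effect was called above, 13.7% of 1563 called below and 13.4% of all 16332 members with a window. TGTCGG was found in 4.62%, 6.14% and 5.77% of the same sets. The G-box was found in 5.49%, 12.3% and 9.18%. These shares were not tested, and a match is not a shown binding site.

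Markers of other organs and tissues moved with the genotype, and the values stand here beside the results above. In arf6arf8 gynoecia the summed level of 4 stamen identity markers was 26.5 to 27.5 CPM, against 7.91 to 13.1 CPM in wild-type gynoecia, and 0 of the 4 were at 0 throughout either group. The same sum was 1408 to 1432 CPM in arf6arf8 stamens and 1122 to 1267 CPM in wild-type stamens. PI, which with AP3 sets stamen and petal identity, was at 7.90 and 7.52 CPM in arf6arf8 gynoecia, against 2.33, 4.08, 1.30 and 1.71 CPM in wild-type gynoecia, and AP3 was at 17.5 and 18.6 CPM in arf6arf8 gynoecia, against 9.74, 7.73, 5.58 and 6.46 CPM in wild-type gynoecia. Both rose in gynoecia, with differences of −1.54 ± 0.32 for PI and −0.79 ± 0.21 for AP3, and AP3 rose in stamens too. The AP3 difference lost its call in 8 of 23 alternatives and its stamen rise in 3, with adjusted p up to 0.106 and 0.101 (edgeR).

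Summed levels of pollen and tapetum markers were also higher in arf6arf8 gynoecia. Summed over 18 tapetum markers the level was 160.3 to 207 CPM in arf6arf8 gynoecia, against 45.8 to 97.1 CPM in wild-type gynoecia, with 5 of the 18 at 0 throughout the arf6arf8 group and 4 throughout the wild-type group. A large part of that sum was GRP17, an oleosin-like pollen coat gene, at 89.9 and 143 CPM in arf6arf8 gynoecia, against 24.5, 42.5, 29.8 and 9.52 CPM in wild-type gynoecia. Of the 6 tapetum markers that were members, 2 were called higher in gynoecia and 0 lower, and LAP6 averaged 13.9 CPM in arf6arf8 gynoecia and 18.7 CPM in wild-type gynoecia, an effect of −0.43 ± 0.14 that was not called. Over 19 late pollen markers it was 75.7 to 141 CPM in arf6arf8 gynoecia, against 46.4 to 63.4 CPM in wild-type gynoecia, with 3 at 0 throughout the arf6arf8 group and 1 throughout the wild-type group. In stamens the tapetum sum was 23339 to 24820 CPM in arf6arf8 and 13242 to 19150.5 CPM in wild type, and the late pollen sum 14212 to 16763 CPM in arf6arf8 and 20521 to 27586 CPM in wild type. Most of the tapetum sum was GRP17, at 20558 and 19265 CPM in arf6arf8 stamens, against 14874, 16774 and 11647 CPM in wild-type stamens. Of the 18 tapetum markers, 3 were at 0 throughout arf6arf8 stamens and 6 throughout wild-type stamens. Of the 7 late pollen markers that were members, 5 had a stamen effect below the gynoecium effect, led by TUA1 (difference −1.42 ± 0.13) and ACT12 (−1.61 ± 0.40), a count of between 1 and 6 over the settings. VGD1, a pollen tube pectin methylesterase, had 13.4 and 43.8 CPM in arf6arf8 gynoecia, against 5.33, 10.7, 7.52 and 1.53 CPM in wild-type gynoecia, with replicate 2 the high one. PPME1 and AGP6 were above wild-type gynoecia in arf6arf8 replicate 2 alone. Replicate 1 had 3.80 and 1.57 CPM of them, within the wild-type range. TUA1, at 36.5 CPM, was a large part of the late pollen sum of replicate 1. TUA1, ACT4 and ACT12 were above every wild-type gynoecium library in both replicates. LTP12, a tapetal lipid-transfer protein, was at 548 and 364 CPM in arf6arf8 stamens, against 48.9, 72.2 and 27.5 CPM in wild-type stamens. Its difference was 1.94 ± 0.51, and that of LAP6, a tapetal polyketide synthase, was 1.24 ± 0.29. The LTP12 call was lost in the fit of all 27 libraries and without wild-type gynoecium replicate 2 (adjusted p = 0.458 and 0.0811, edgeR). The LAP6 call was lost with libraries numbered up to 23 (adjusted p = 0.0831, edgeR). LAP6 averaged 6.19 CPM in arf6arf8 stamens and 3.43 CPM in wild-type stamens, below its gynoecium mean in each genotype.

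Nectaries sit at the base of the stamens, and CRC marks them as well as the carpel. The 3 nectary markers summed to 22.1 to 38.3 CPM in arf6arf8 gynoecia, against 1.25 to 9.08 CPM in wild-type gynoecia, with 1 of the 3 at 0 throughout each of these groups. In stamens the sum was 287 to 311 CPM in arf6arf8 and 312 to 421 CPM in wild type. Nearly all of it was CWINV4, at 307 and 283 CPM in arf6arf8 stamens, against 368, 303 and 416 CPM in wild-type stamens. In gynoecia most of the sum was CRC, which is also among the carpel markers. CRC alone was at 36.5 and 21.0 CPM in arf6arf8 gynoecia, against 1.17, 3.23, 9.08 and 7.36 CPM in wild-type gynoecia (difference −3.43). The 7 carpel and ovule markers were at similar sums in both genotypes, 375 to 434 CPM in arf6arf8 gynoecia and 371 to 416 CPM in wild-type gynoecia, and 25.8 to 28.6 CPM in arf6arf8 stamens and 26.0 to 27.1 CPM in wild-type stamens. The sums hide opposite changes: in gynoecia STK, a regulator of ovule identity, rose by 0.56 and SHP1 fell by 0.68 on the log2 scale (adjusted p = 0.00542 and 0.00459, edgeR). Among the same markers SHP2, at 1.02 and 1.07 CPM in arf6arf8 stamens, against 5.29, 4.52 and 2.96 CPM in wild-type stamens, differed by −2.07 ± 0.30, and BEL1 by 1.01 ± 0.17. Heat shock transcripts can rise with handling of the tissue, among other conditions. They summed to 152 to 227 CPM in arf6arf8 stamens, against 24.2 to 91.8 CPM in wild-type stamens. In gynoecia the sum was 42.5 to 70.6 CPM in arf6arf8 and 28.5 to 101 CPM in wild type. HSP70 made up most of the stamen sum in arf6arf8, at 95.4 and 136 CPM, against 59.1, 37.6 and 5.03 CPM in wild type. HSP101, HSP90.1 and HSFA2 were also higher in both arf6arf8 stamen libraries than in wild type. HSP18.2 was not, at 1.49 and 1.31 CPM, against 1.98, 1.58 and 1.77 CPM in wild-type stamens. The part of these tissues and of handling in the differences between the organs was not tested. Among 15486 members whose wild-type organs lay within 10-fold of each other, 623 stamen effects were called above and 1308 below the gynoecium effect, a choice of members made after seeing the data.

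**Figure D5:**
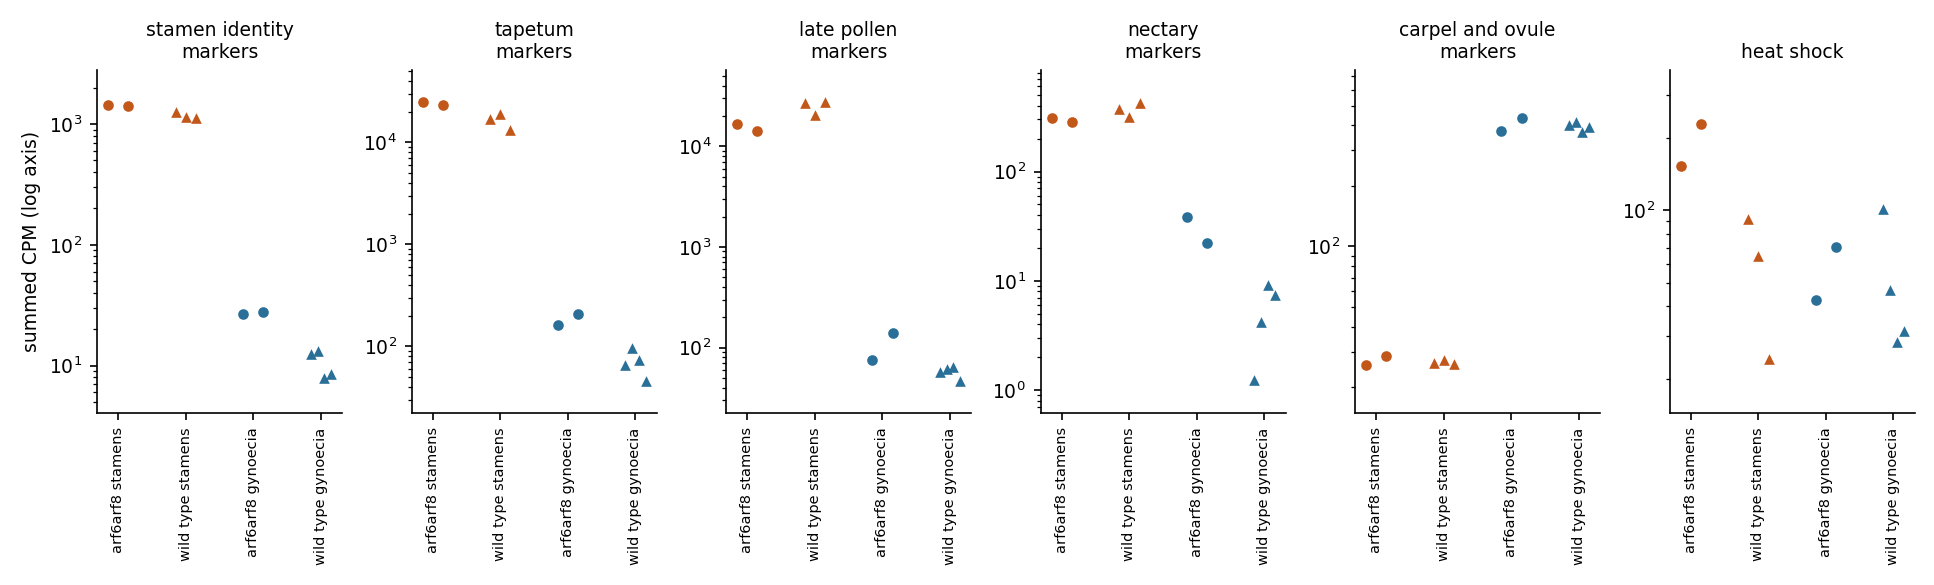
Summed CPM of 6 marker lists in every library (vertical log axis), with arf6arf8 to the left of wild type in each organ. Stamen identity, tapetum and nectary sums in gynoecia are higher in both arf6arf8 libraries than in the 4 wild-type libraries, and carpel and ovule sums are close between the genotypes.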

How the data were processed

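Polyadenylated RNA of 11 libraries was sequenced as single-end reads of 50 bases. The deposited values are raw read counts per locus for each library; per the submitters' processing notes the tools were TopHat2, HTSeq and edgeR with the TAIR10 build, and their versions, order and strand setting are not given in the sources used here. Here the counts were scaled with TMM factors, loci with low counts were removed (minimum count 10, total 15), and 1 model with 4 groups was fitted over 20374 loci with edgeR 4.0.16 (R 4.3.3, limma 3.58.1), using the quasi-likelihood F test and 7 residual degrees of freedom. The contrasts were the effect in stamens, the effect in gynoecia and their difference, with Benjamini-Hochberg adjustment over all tested loci; standard errors are the log2 fold change divided by the square root of F. A change is called at an adjusted p under 0.05. Symbols, coordinates and sequences come from the RefSeq copy of TAIR10.1, where 32835 loci matched; the files give locus names only.

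Members and lists were chosen with earlier results of these data known. Named are ARF6, ARF8 and the miR167 loci; the 8 highest and 8 lowest called differences whose average log2 CPM reached 1; 5 genes of each opposite pattern; the 2 called members with the smallest p of each list; and 4 genes of each shared direction. Other list members named as examples were chosen after their values were seen, and so was the indole glucosinolate list. On simulated counts for the difference (20200 loci, arf6arf8 stamens changed), 74% of 2-fold and 91% of 4-fold changes were found, and 6.78% of the calls were false. The simulation changed 100 members at each fold, in random directions, with no genotype effect elsewhere. In the data 2257 members were called, so these shares need not hold there. How errors of scaling affect the calls cannot be read from it. Alternatives were other scalings, DESeq2 1.42.0, other filters and member rules, the fit of all 27 libraries, a replicate block, and leaving out each library. Only libraries of the 4 groups entered the comparison.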

Additional observations from a re-analysis of the deposited data

Results flagged for a closer look

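In 25 of the named genes the arf6arf8 effect was called in opposite directions in stamens and in gynoecia, and the difference itself was called by edgeR. The stamen effect was the higher one, as log2 difference, for AT3G26140 (9.44), AT3G22240 (6.52), IAA1 (3.54), SBT5.4 (3.15), KAT1 (3.10), AT1G59740 (2.27), PMT5 (1.72), IAA26 (1.66), HMA2 (1.46) and BEL1 (1.01). It was the lower one for ASN1 (−5.75), scpl35 (−5.54), CYP79B2 (−5.51), CYP83B1 (−5.13), AT5G44260 (−3.96), AT5G02180 (−3.62), LAX3 (−3.45), AT4G39670 (−2.97), CKX1 (−2.25), SOT18 (−2.18), MYB16 (−2.10), AT2G31790 (−1.96), APK (−1.79), TUA1 (−1.42) and AUR2 (−0.97). Part of these genes was named by a rule that asked for opposite calls, so their number says nothing about how frequent such genes are; 206 of the 16360 members were called in opposite directions in both organs. For some of them 1 of the calls within an organ was unstable: it was lost for AUR2 in gynoecia in 17 of 24 alternatives (adjusted p up to 0.53), for IAA26 in stamens in 15 (up to 0.143), for ASN1 in gynoecia in 14 (up to 0.385) and for IAA1 in stamens in 7 (up to 0.158), by edgeR or DESeq2.

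CKX1 was at 5.45 CPM in wild-type gynoecium replicate 3, apart from the other wild-type gynoecia at 5.16 to 5.21 CPM by Dixon's criterion. It was 1 of 73 named genes examined, and chance flags about 1 in 20. Only wild-type gynoecia were examined, because the other groups had too few libraries for this criterion.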

How the results depend on the processing

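With upper-quartile scaling 1207 members had a stamen effect called above the gynoecium effect. In the fit of all 27 libraries 667 were called below it, 1174 fell in stamens, 502 rose in gynoecia, and 59 of 295 list members were called, against 115. Voom with library weights, chosen after seeing the data, gave 2332 rises and 947 falls in gynoecia. Leaving out each library gave 265 to 1203 above, 727 to 1632 below, 957 to 2101 rises and 985 to 1862 falls in stamens, 457 to 1542 rises and 198 to 877 falls in gynoecia, and 76 to 111 list members. The count above was 1203 without wild-type stamen replicate 2 and 268 and 265 without arf6arf8 gynoecium replicates 1 and 2. The count below was 727 and 799 without arf6arf8 stamen replicates 1 and 2, 970 without wild-type stamen replicate 1, and 962 and 875 without arf6arf8 gynoecium replicates 1 and 2. In stamens, leaving out arf6arf8 replicates 1 and 2 gave 1057 and 957 rises and 1103 and 985 falls. In gynoecia it gave 561 and 457 rises and 221 and 198 falls, and leaving out wild-type stamen replicate 3 gave 877 falls. A fit without 1 arf6arf8 library leaves a lone sample, assumed to vary like the other groups. The cause of these shifts was not tested.

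Replicate numbers are shared between groups but nothing says that they pair libraries, and deviations of same-numbered libraries correlated at −0.105 and 0.182 in stamens and −0.039 and 0.163 in gynoecia. With the replicate block 634 members were called above and 1532 below. Over the alternatives for the difference of named genes, 1620 values kept direction and call, 56 lost the call, 1 gained it and 7 reversed. The effects within an organ lost a further 72 calls, at 16 of 64 named genes called in stamens, and 60 calls, at 16 of 48 in gynoecia. All 7 concern the difference of AT4G32350, −0.05 as reported and not called. It was 0.0508 with upper-quartile scaling, 0.0023 with all 27 libraries, 0.019 with libraries numbered up to 23, and 0.167, 0.0649, 0.0275 and 0.0013 without arf6arf8 stamen replicate 1, wild-type stamen replicates 1 and 3 and wild-type gynoecium replicate 3. Without arf6arf8 stamen replicate 2 it was −0.137, the lowest value. Wild-type stamens, the shallowest group, limit what can be seen of transcripts under 1 CPM.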
